A study of Mus musculus with 5 samples.

Results

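The 10 genes described here encode transcription factors of families with members that set and guard epidermal identity. They are Trp63, the mouse gene of p63, the Grainyhead-like genes Grhl1, Grhl2 and Grhl3, the Ovo-like genes Ovol1 and Ovol2, and the AP-2 genes Tfap2a, Tfap2b, Tfap2c and Tfap2e. They were chosen by name, and are 10 of the 21631 protein-coding genes of a RefSeq table on the 19 autosomes and X of mm10. Every called region of H2AK119ub or H3K27me3 over the gene body and 20 kb on each side was taken. The window so defined is called the gene's window below. All 10 lie on autosomes.

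The chromatin came from control mice carrying the K14-RFP and K10-H2B-GFP reporters, at postnatal day 71. From the back-skin epidermis a sort kept basal progenitors that were Sca1(+), RFP(high) and GFP(-). The population is thus defined by Sca1 together with the keratin promoters that drive the reporters. Each mark had 2 libraries, beside 1 input library, all from the same kind of cells, and no treated or mutant group is described here. The labels do not state the number of animals, their sex or any pooling. The deposited data were 1 list of regions per mark, 33155 for H2AK119ub and 15102 for H3K27me3, with positions and no height, score or replicate. Neither read depth nor replicate spread can be read from them, no test between samples was possible, and all values describe these 2 lists.

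H2AK119ub is ubiquitin on histone H2A, placed by Polycomb repressive complex 1, and H3K27me3 is trimethylation of histone H3, placed by Polycomb repressive complex 2. The complexes are known for keeping developmental regulators silent, and H2AK119ub can also be found without H3K27me3. p63 is required for stratified epithelia, and its gene makes longer TA and shorter N-terminally truncated (delta N) proteins from separate starts. Grainyhead-like and AP-2 proteins act with p63 on epidermal genes, and Ovo-like proteins repress genes of the mesenchymal state. RNA was not measured, so nothing here bears on the level at which these genes were expressed. In sorted bulk chromatin a mark in some of the cells and a weaker mark in all of them cannot be told apart. The sort could not be checked by expression. Among marker genes, whose RNA level is unknown here, H3K27me3 can still be counted. Of the 6 genes taken as basal markers, Krt5, Krt14, Krt15, Itga6, Itgb4 and Col17a1, 0 had H3K27me3 within 1 kb of an end. Of the 6 taken as Merkel cell markers 6 had it, against 24.7% of all protein-coding genes. Among these, Krt8 and Krt18 lie in the same 82.3 kb H3K27me3 region, so they are not separate cases. Over the gene body and 20 kb on each side, 3 of the 6 basal markers had H3K27me3, Krt14, Krt15 and Itga6, and 6 of the 6 Merkel cell markers, against 44.5% of all protein-coding genes. Within 1 kb of an end the count was 2 of 6 for suprabasal epidermis, 2 of 8 for melanocytes, 2 of 4 for immune cells, 3 of 5 for dermal fibroblasts and 1 of 4 for endothelium.

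All 10 genes had H2AK119ub in their windows, and 4 of them, Ovol1, Ovol2, Tfap2a and Tfap2c, also had H3K27me3. The windows held 30 H2AK119ub regions and 6 H3K27me3 regions. Among all protein-coding genes 71.8% had an H2AK119ub region in the same kind of window and 44.5% an H3K27me3 region, which was 42.5% on the autosomes alone. Having both marks, as 4 of the 10 did, was found for 40.3% of all genes. Thus the share with H3K27me3 was near the background at this flank. With a flank of 0 kb the same count of 4 stood against 25.7% of all genes. H2AK119ub without H3K27me3, as in the other 6, was found for 31.5%. With a count of 10 genes, these shares describe the set and were not tested.

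Each of the 6 H3K27me3 regions lay whole inside an H2AK119ub region. Among the 12952 autosomal H3K27me3 regions, 36.4% did so. Of the 6, 3 belong to Tfap2a, so they are not separate cases. In the other direction the marks were unequal, since H2AK119ub covered 414 kb of the 942 kb of windows and H3K27me3 covered 51.3 kb. Thus 12.4% of the H2AK119ub length in the windows was also under H3K27me3, against 23.2% of the H2AK119ub length on all autosomes. Co-location of regions from separate libraries does not show that the marks sat on the same chromosome copies.

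The RefSeq promoter set used here lists 8 transcript starts for 6 of the genes, in the build GRCm38.p6, which is mm10. Of these starts 7 lay under H2AK119ub and 3 under both marks, against 39.7% and 15.8% of 21045 listed starts of protein-coding genes. Of the 3, 2 belong to Tfap2a and lie in the same regions, so they are not separate cases. The count leaves out Trp63, Grhl2, Ovol1 and Tfap2c, which have no start in the set used. Their windows had 5.70%, 11.6%, 93.3% and 100% under H2AK119ub. The 250 bases before 5 of the starts are shown because they span the states found, with CpG dinucleotides, which are dense at many Polycomb targets, in capitals. The starts of Ovol2 (chr2:144331363-144331612, minus strand) and Tfap2a (chr13:40734921-40735170, minus strand, the upstream one of its 2) lay under both marks. The start of Grhl3 (chr4:135573633-135573882, minus strand) and the upstream start of Grhl1 (chr12:24572037-24572286, plus strand) lay under H2AK119ub alone, and the downstream start of Grhl1 (chr12:24580469-24580718, plus strand) under neither.
Ovol2: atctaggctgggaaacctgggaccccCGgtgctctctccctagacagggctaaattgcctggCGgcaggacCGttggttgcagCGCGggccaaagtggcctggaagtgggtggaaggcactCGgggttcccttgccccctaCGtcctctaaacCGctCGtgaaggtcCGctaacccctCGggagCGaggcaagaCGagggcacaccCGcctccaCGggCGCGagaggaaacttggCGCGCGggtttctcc
Tfap2a: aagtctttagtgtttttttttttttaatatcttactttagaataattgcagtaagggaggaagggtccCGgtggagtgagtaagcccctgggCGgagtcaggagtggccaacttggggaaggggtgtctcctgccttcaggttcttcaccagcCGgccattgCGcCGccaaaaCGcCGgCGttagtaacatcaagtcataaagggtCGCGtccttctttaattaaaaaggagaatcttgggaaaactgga
Grhl3: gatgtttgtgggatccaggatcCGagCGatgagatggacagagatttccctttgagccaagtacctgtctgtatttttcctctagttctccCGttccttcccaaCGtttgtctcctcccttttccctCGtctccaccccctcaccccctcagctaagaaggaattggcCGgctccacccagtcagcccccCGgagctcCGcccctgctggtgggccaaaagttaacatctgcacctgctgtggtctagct
Grhl1, upstream start: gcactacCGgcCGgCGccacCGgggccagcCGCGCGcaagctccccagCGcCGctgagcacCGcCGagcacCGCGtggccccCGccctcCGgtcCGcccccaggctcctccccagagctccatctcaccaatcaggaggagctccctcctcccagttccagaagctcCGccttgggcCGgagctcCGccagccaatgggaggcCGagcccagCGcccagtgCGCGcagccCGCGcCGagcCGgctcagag
Grhl1, downstream start: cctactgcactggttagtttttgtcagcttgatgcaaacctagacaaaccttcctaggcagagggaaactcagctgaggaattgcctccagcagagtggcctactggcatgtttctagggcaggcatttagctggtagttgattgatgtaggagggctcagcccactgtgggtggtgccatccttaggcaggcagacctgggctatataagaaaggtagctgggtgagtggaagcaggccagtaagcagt

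The CpG content of these stretches differed widely among starts under the same marks. The stretch of Ovol2 held 20 CpGs and that of Tfap2a 10 at each of its 2 starts. Under H2AK119ub alone the counts were 27 at the upstream start of Grhl1, 15 at Tfap2e, 8 at Grhl3 and 5 at Tfap2b. The downstream start of Grhl1, 2.34 kb from the nearest H2AK119ub region, held 0, as did 6.45% of all listed starts. Over all listed starts the median was 11 CpGs under both marks, 10 under H2AK119ub alone, 5 under H3K27me3 alone and 9 under neither. Thus the starts of Grhl3 and Tfap2b, with fewer CpGs than the median of 10 over all starts, lay under H2AK119ub, as did the CpG-rich upstream start of Grhl1.

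The same 250 bases were searched for motifs bound by these families. The AP-2 motif GCCNNNGGC was searched on both strands, and being a palindrome it reads the same on each. It occurred at 1 of the 8 starts, the upstream one of Grhl1, against 16.5% of all listed starts. The Grainyhead motif AACCGGTT, also a palindrome, the Ovo motif CCGTTA and the p53 family decamer motif were found at 0 of the 8, against 0.143%, 2.38% and 6.29% of all starts. A match is a description of the letters, and its absence says only that they are not in these 250 bases.

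**Figure D1:**
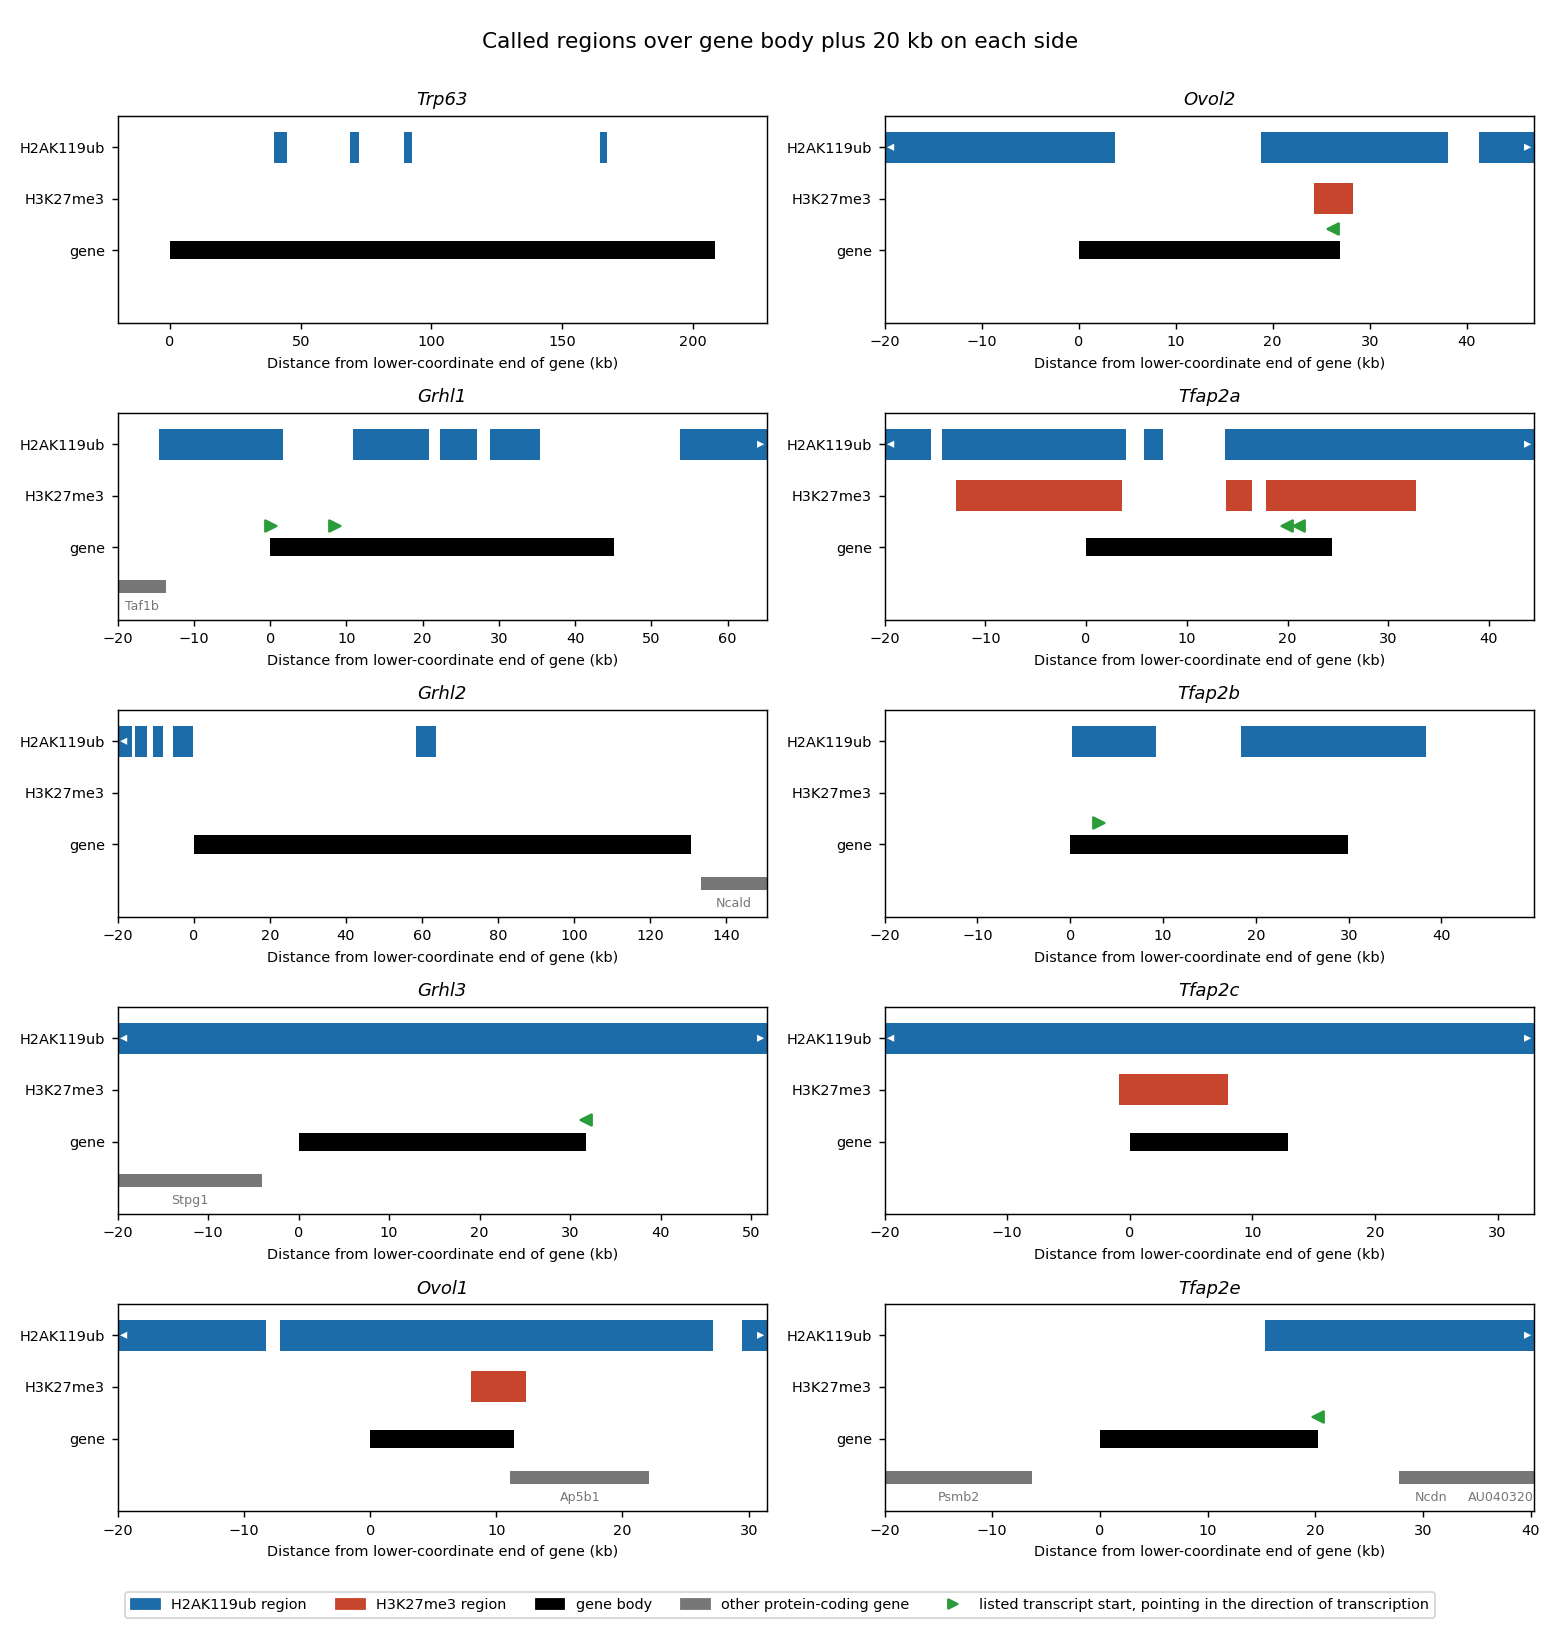
Called regions of H2AK119ub (blue) and H3K27me3 (red) over each gene (black) and 20 kb on each side, with distance from the lower-coordinate end of the gene in kb on the x axis and a separate scale in each panel. White arrowheads mark regions that run beyond the panel, green arrowheads the transcript starts in the RefSeq promoter set used, and grey bars other protein-coding genes. Trp63 has 4 short H2AK119ub regions inside a long gene, Grhl3 and Tfap2c lie whole inside an H2AK119ub region, and each of the 6 red regions falls within the span of a blue one. The H2AK119ub region that reaches 0.099 kb into the window of Grhl1 is too short to be seen.

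Trp63 carried H2AK119ub only in isolated patches inside the gene. The gene (RefSeq gene ID 22061) spans 208 kb at chr16:25683763-25892088. Its 4 H2AK119ub regions lay at 25723691 to 25728595 (4.91 kb wide), 25752450 to 25755902 (3.45 kb), 25773316 to 25776370 (3.06 kb) and 25848364 to 25851106 (2.74 kb). Each was narrower than the median H2AK119ub region of 8.09 kb. They began 39.9, 68.7, 89.6 and 164.6 kb above the lower end of the gene. No region of either list lay within 20 kb outside the gene or within 1 kb of its ends. H2AK119ub over a gene but away from its ends was found for 3.54% of protein-coding genes.

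The patches of Trp63 were sparse. Together they covered 14.2 kb, or 5.70% of the window and 6.80% of the gene. Among the 15536 genes with H2AK119ub in the window, 9.19% had a lower covered percentage. The widest stretch without a called region inside the gene ran 72.0 kb, from 25776371 to 25848363. The nearest H3K27me3 region began 629 kb above the gene, at 26520917, and 7.62% of the 20665 autosomal genes lay farther from an H3K27me3 region. The median distance over those genes was 34.6 kb. The patches were not placed against its TA and delta N starts here.

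The Grainyhead-like genes, whose fly relative gave the family its name, had H2AK119ub alone, in amounts that ranged from a few patches to full cover. Grhl1, which controls desmosomal genes, spans 45.2 kb at chr12:24572232-24617391 (gene ID 195733) and had 6 regions covering 57.8% of the window. A 16.3 kb region from 24557615 to 24573950 crossed its 5′ end and stopped 1.72 kb inside. It also met the near end of Taf1b, a gene for a subunit of an RNA polymerase I factor, at 24558571. Inside the gene lay regions from 24583061 to 24593106 (10.05 kb), 24594469 to 24599388 (4.92 kb) and 24601070 to 24607568 (6.50 kb), separated by gaps of 1.36 and 1.68 kb. The remaining 2 lay at the window's borders. Of these, 24540806 to 24552330 reached 0.099 kb into it, and 24626038 to 24637775 began 8.65 kb above the gene. The 3′ end of Grhl1 was free of called regions for 18.5 kb, from 24607569 to 24626037. Its nearest H3K27me3 region was 60.1 kb away.

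Grhl2, a regulator of epithelial junction genes such as Cdh1, was marked beside its lower end and barely inside. It spans 131 kb at chr15:37232821-37363569 (gene ID 252973). Below the gene lay regions from 37204201 to 37216458 (12.3 kb), 37217474 to 37220628 (3.16 kb), 37222048 to 37224597 (2.55 kb) and 37227429 to 37232665 (5.24 kb). The last of them stopped 0.156 kb short of the gene, over part of the annotated noncoding gene Gm16136, which overlaps that end. The fifth region lay inside, from 37291171 to 37296477 (5.31 kb). H2AK119ub covered 36.5% of the flanking sequence and 4.06% of the gene, the lowest share of the gene body among the 10. From the fifth region to the upper border of the window, 87.1 kb that include the near end of Ncald, a neuronal calcium sensor gene, had no region of either mark. The nearest H3K27me3 region was 64.0 kb away.

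Grhl3, which is needed for the skin barrier and wound closure, lay whole inside an H2AK119ub region. The region ran 137 kb from 135472641 to 135609422 on chromosome 4, around the 31.7 kb gene at chr4:135541887-135573632 (gene ID 230824), and contained the neighbour Stpg1 as well. Of the 33155 H2AK119ub regions, 99.4% were narrower. Complete cover of the window was found for 3.18% of protein-coding genes. The annotated noncoding gene Gm30888 overlaps the 5′ end of Grhl3, so cover there cannot be assigned to one of them. The nearest H3K27me3 region was 141 kb away. The windows of the 3 paralogs thus had 57.8%, 11.6% and 100% of their length under H2AK119ub for Grhl1, Grhl2 and Grhl3, and 0% under H3K27me3.

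The Ovo-like genes had H3K27me3 in a short region at the higher-coordinate end, set inside much wider H2AK119ub. Ovol1, a zinc finger repressor that restrains proliferation as keratinocytes differentiate, spans 11.4 kb at chr19:5549137-5560575 (gene ID 18426). Its H3K27me3 region ran 4.39 kb from 5557131 to 5561517, across the higher end, where the gene Ap5b1, for an adaptor complex subunit, has its lower end 0.325 kb inside Ovol1. The region therefore cannot be assigned to one of the 2 genes. Ovol1 lay whole inside a 34.3 kb H2AK119ub region from 5542033 to 5576323, and the H3K27me3 region was 15.1 and 14.8 kb from its edges. Further H2AK119ub regions from 5504546 to 5540859 (36.3 kb) and from 5578603 to 5589930 (11.3 kb) followed after gaps of 1.17 and 2.28 kb. H2AK119ub covered 93.3% of the window and H3K27me3 8.53%. The annotated pseudogene Gm31166 overlaps the lower end of Ovol1 by 1.24 kb, so H2AK119ub there cannot be assigned to one of them.

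Ovol2, which represses the mesenchymal factor gene Zeb1, showed the same arrangement over its transcript start. It spans 26.9 kb at chr2:144305175-144332080 (gene ID 107586) on the minus strand. Its H3K27me3 region ran 4.03 kb from 144329469 to 144333498, with the listed start at 144331362 near its middle, 1.89 and 2.14 kb from its edges, so that all 250 bases printed above for Ovol2 lay under both marks. A 19.3 kb H2AK119ub region from 144324008 to 144343293 held it. A 30.0 kb region from 144278894 to 144308875 crossed the 3′ end, and a 25.6 kb region from 144346399 to 144372026 lay upstream. Between the regions at its ends, 15.1 kb of the gene from 144308876 to 144324007 carried no called region. H2AK119ub covered 92.2% of the flanks, 43.8% of the gene and 72.7% of the window, and H3K27me3 covered 6.02% of the window. Both H3K27me3 regions of the Ovol genes were narrower than the median autosomal H3K27me3 region of 7.69 kb.

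Tfap2a, which acts in epidermis and in neural crest, had the most H3K27me3 of the 10. It spans 24.4 kb at chr13:40713802-40738238 (gene ID 21418) on the minus strand. H3K27me3 regions ran from 40700858 to 40717355 (16.5 kb) over the 3′ end, from 40727652 to 40730318 (2.67 kb) inside the gene and from 40731693 to 40746539 (14.8 kb) over the 5′ end and both listed starts. H2AK119ub regions ran from 40686827 to 40698416 (11.6 kb) below the gene, from 40699528 to 40717793 (18.3 kb) over the 3′ end, from 40719588 to 40721464 (1.88 kb) inside and from 40727643 to 40760019 (32.4 kb) over the 5′ end. H3K27me3 covered 52.8% of the window, and among the 9619 genes with H3K27me3 in the window, 81.4% had a lower share. For the others this share was 16.8% in Tfap2c, 8.53% in Ovol1 and 6.02% in Ovol2, against a median of 16.6% over those 9619 genes.

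The noncoding gene Gm26688 overlaps the 5′ part of Tfap2a, and regions there cannot be assigned to one of the 2. In the middle of Tfap2a both marks were sparse. H3K27me3 was absent for 10.3 kb, from 40717356 to 40727651. H2AK119ub was absent from 40717794 to 40719587 and from 40721465 to 40727642, on the 2 sides of the 1.88 kb region. On one side of this stretch the called regions of the 2 marks began 9 bp apart, and on the other side they ended 438 bp apart. Of the 12 edges of H3K27me3 regions at the 10 genes, 1 lay within 100 bp of an H2AK119ub edge, against 2.68% of 25904 autosomal H3K27me3 edges, and the distance of 100 bp was chosen after the values had been seen. Within 10 bp, 500 bp and 1 kb the counts were 1, 2 and 2, against 0.355%, 8.59% and 13.6% of those edges. H2AK119ub and H3K27me3 overlapped over 61.4% of the H2AK119ub length in the window of Tfap2a, 16.8% in that of Tfap2c, 9.14% in that of Ovol1 and 8.28% in that of Ovol2.

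Tfap2c, an AP-2 gene of early epidermis and placenta, lay under very wide H2AK119ub and an H3K27me3 region of middling width. The gene spans 12.9 kb at chr2:172545678-172558622 (gene ID 21420). It lay whole inside a 138 kb H2AK119ub region from 172471624 to 172609149, which was wider than 99.4% of the list. Its H3K27me3 region ran 8.87 kb from 172544806 to 172553678, wider than 52.4% of the H3K27me3 list, across the lower end, and covered 61.8% of the gene and 2.18% of the flanks. A further H3K27me3 region of 8.89 kb, from 172514092 to 172522976, lay in the same H2AK119ub region 22.7 kb below the gene, outside the window.

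Tfap2b and Tfap2e, the AP-2 genes best known outside the epidermis, had H2AK119ub alone. Tfap2b, with roles in neural crest and kidney, spans 29.9 kb at chr1:19208908-19238845 (gene ID 21419) on the plus strand. An H2AK119ub region of 9.08 kb from 19209110 to 19218187 held its listed start at 19212054, and one of 19.98 kb from 19227291 to 19247265 crossed the 3′ end. They covered 68.9% of the gene and 21.1% of the flanks, so that H2AK119ub was denser over the gene than beside it. Tfap2e, studied mainly in the olfactory system, spans 20.3 kb at chr4:126716003-126736269 (gene ID 332937) on the minus strand. Its H2AK119ub region ran 25.8 kb from 126731332 to 126757140, over the 5′ end and on over Ncdn, a neuronal gene, and into the near end of AU040320. The 3′ part of Tfap2e and the near end of Psmb2, a proteasome gene, formed 35.3 kb without a called region, up to 126731331. The nearest H3K27me3 region ended 48.9 kb from Tfap2e, at 126667115.

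Tfap2d, the AP-2 gene next to Tfap2b on chromosome 1, had H3K27me3 alone. It ends 34.96 kb below Tfap2b, at 19173948. Its window had no H2AK119ub region and 2 H3K27me3 regions, from 19095776 to 19108759 (13.0 kb), over its plus-strand start at 19103022, and from 19109935 to 19112522 (2.59 kb). H3K27me3 without H2AK119ub in the window was found for 4.12% of protein-coding genes. The shorter of these regions is the H3K27me3 region nearest to Tfap2b, 96.4 kb from it.

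**Figure D2:**
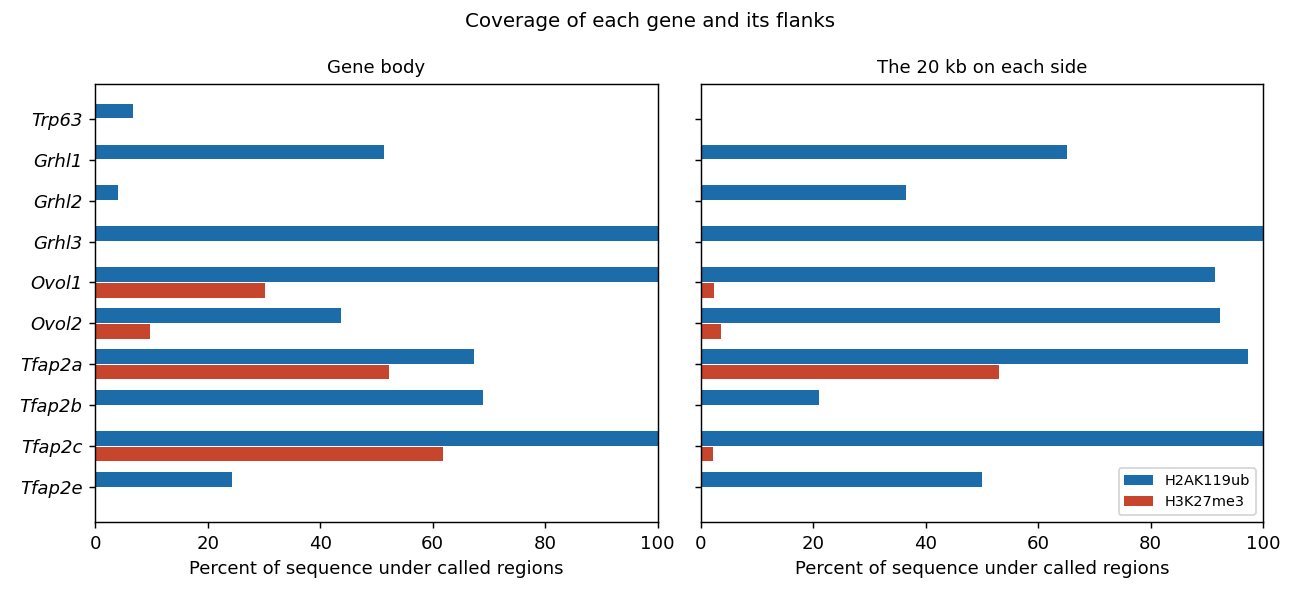
Percent of each gene body (left) and of the 20 kb on each side of it together (right) that lay under called regions of H2AK119ub (blue) and H3K27me3 (red), with 1 list per mark and hence no error bars. Tfap2b had more H2AK119ub over the gene (68.9%) than in the flanks (21.1%), Grhl2 the reverse (4.06% and 36.5%), and H3K27me3 in the flanks exceeded 10% for Tfap2a alone.

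Within 1 kb of a gene end, 9 of the 10 genes had H2AK119ub, Trp63 being the exception, against 57.1% of all protein-coding genes, and 6 had it at both ends, against 34.1%. H3K27me3 was within 1 kb of an end at 4, against 24.7%, and at both ends in Tfap2a alone, against 10.3%. H3K27me3 over the gene but not at its ends was found at 0 of the 10, against 2.66%. Grhl3, Ovol1 and Tfap2c lay whole inside 1 H2AK119ub region, as did 17.4% of all genes, and 0 of the 10 lay whole inside an H3K27me3 region, against 6.42%. Of the 30 H2AK119ub regions, 10 touched or contained a gene end, 10 were internal to a gene and 10 lay in a flank. Here no margin of 1 kb was allowed. The internal ones thus include the Tfap2b region that begins 0.202 kb inside the gene and holds its listed start. Those in a flank include the Grhl2 region that stops 0.156 kb short of the gene. The widths of the 30 ran from 1.88 to 138 kb with a median of 11.6 kb. The windows of the 10 genes had a median of 65.3% under H2AK119ub, against 22.1% over all protein-coding genes, and 8 of the 10 were above that value. Trp63 and Grhl2, the longest genes of the set, were the 2 below it. The median H3K27me3 share was 0% in the set and 0% over all genes.

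**Figure D3:**
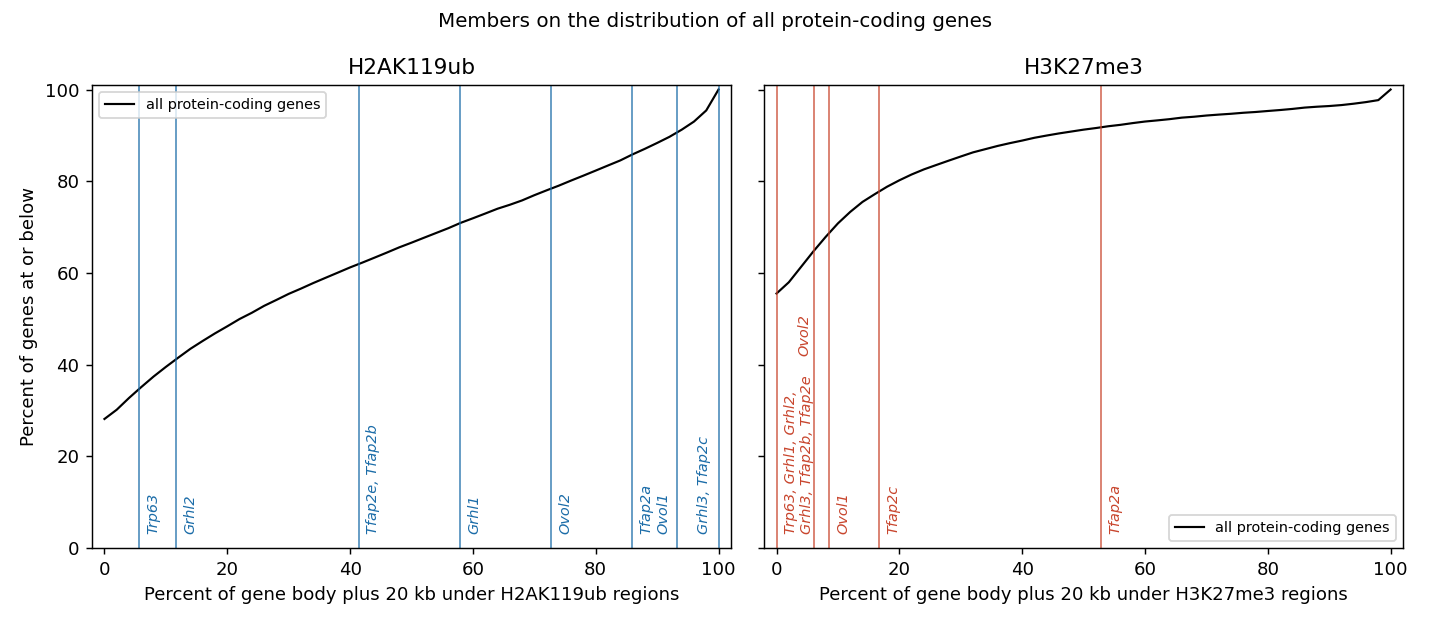
Cumulative distribution of the percent of gene body plus 20 kb under H2AK119ub (left) and H3K27me3 (right) over 21631 protein-coding genes (black line), with the value of each of the 10 genes as a vertical line (genes within 1 percentage point share a line at their mean). For H2AK119ub the genes run from Trp63 (5.70%) to Grhl3 and Tfap2c (100%), and for H3K27me3 6 of them are at 0%.

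The relatives, targets and partners of these factors were counted in 5 lists. Of 24 genes of the p53 family and epidermal targets of p63, 23 had H2AK119ub in the window and 10 had H3K27me3, against 71.8% and 44.5% of all protein-coding genes. Trp73, the other p53 relative of p63, had both, with 100% of its window under H2AK119ub, in a 148 kb region, and 32.3% under H3K27me3. Trp53 had 53.7% and 25.3% of its window under the marks, but 0% of the gene itself under either. The median share of the window was 83.8% for H2AK119ub and 0% for H3K27me3 in this list, against 22.1% and 0% over all genes. With both marks, wide H3K27me3 regions lay at Runx1 (40.7 kb), a transcription factor gene, Trp73 (39.9 kb) and Dlx3 (21.7 kb), an epidermal homeobox gene. Those with H2AK119ub alone were led by Nectin1 (161 kb), Itgb4 (83.6 kb), Jag2 (76.6 kb) and Lamb3 (75.3 kb), for cell adhesion, a Notch ligand and the basement membrane. Chuk, which encodes a kinase needed for epidermal differentiation, had neither mark.

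Of 13 genes grouped as Grainyhead relatives and targets, 12 had H2AK119ub and 3 had H3K27me3, against 71.8% and 44.5% of all protein-coding genes. The median shares of the window were 40.9% and 0%, against 22.1% and 0% over all genes. Tfcp2, Tfcp2l1 and Ubp1, the other branch of the Grainyhead superfamily, had H2AK119ub alone over 43.4%, 35.3% and 20.2% of their windows. The 3 with H3K27me3 were the claudin genes Cldn3 (25.5% of the window) and Cldn4 (14.6%) and the splicing factor gene Esrp1 (9.49%). Cldn3 and Cldn4 are neighbours. The widest H2AK119ub regions in this group without H3K27me3 were at Esrp2 (43.9 kb), Rab25 (36.5 kb), Cdh1 (35.9 kb) and Tfcp2 (29.3 kb). Of the gene itself, H2AK119ub covered 100% in Esrp2, 100% in Rab25, 9.65% in Cdh1 and 27.9% in Tfcp2. Dsg1a, a desmosomal cadherin gene, had neither mark.

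Of the 10 genes grouped as Ovol relatives and mesenchymal factors, 9 had H2AK119ub and 8 had H3K27me3, against 71.8% and 44.5% of all genes. Their median share of the window was 26.8% for H2AK119ub and 41.6% for H3K27me3, against 22.1% and 0% over all protein-coding genes. By width of the H3K27me3 region, Snai1 (80.5 kb), Zeb2 (34.3 kb), Twist1 (33.6 kb) and Twist2 (21.2 kb) led, all of them factors that drive the mesenchymal state. Zeb1, the target of Ovol2, had 6.75% of its window under H3K27me3 and 2.65% under H2AK119ub. Ovol3, the remaining Ovo-like gene, had H2AK119ub alone over 44.2%, and Snai2 had neither mark.

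Of 6 AP-2 relatives and partners, 5 had H2AK119ub and 5 had H3K27me3, a count that includes Tfap2d. Among all protein-coding genes 71.8% and 44.5% had them. The median shares of the window were 68.0% and 10.96%, against 22.1% and 0% over all genes. Cited1, an AP-2 coactivator gene on X, lay whole under both marks, in regions of 495 kb each. Its cover was not compared with that of other genes on X. Of Kctd1 and Kctd15, whose proteins restrain AP-2 activity, both had both marks, with H3K27me3 over 8.01% and 5.63% of the window, and so had Cited4, with 13.9%. Cited2 had H2AK119ub alone. Of 22 other epidermal transcription factor genes, 22 had H2AK119ub and 13 had H3K27me3, against the same 71.8% and 44.5%. Their median shares were 94.6% and 6.47%. Among the 13, H3K27me3 regions were widest at Lhx2 (135 kb), Sox9 (61.8 kb), Msx1 (47.9 kb) and Tcf7l1 (39.9 kb). Among the 9 with H2AK119ub alone, regions were widest at Notch1 (162 kb), Ehf (111 kb), Cebpb (59.8 kb) and Cebpa (48.7 kb). For Cebpb, H2AK119ub covered 95.6% of the window but 0% of the gene itself.

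**Figure D4:**
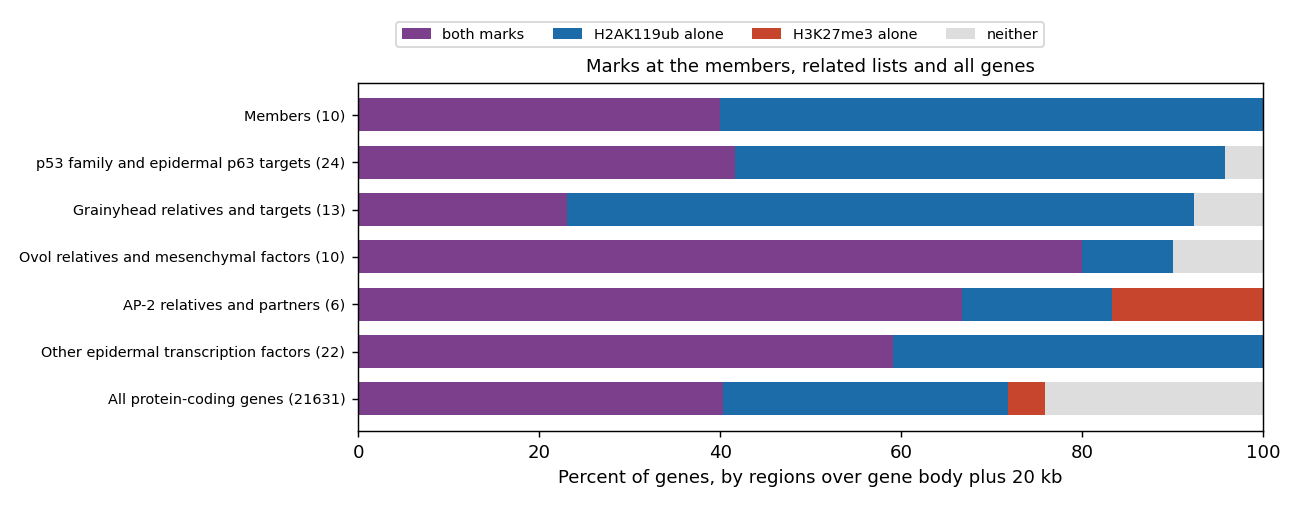
Percent of genes with both marks (purple), H2AK119ub alone (blue), H3K27me3 alone (red) or neither (grey) over gene body plus 20 kb, for the 10 genes described here, 5 related lists with their number of genes, and all protein-coding genes at the bottom. Both marks were found at 4 of the 10 genes and at 8 of the 10 Ovol relatives and mesenchymal factors, against 40.3% of all genes.

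Of the 75 genes in those 5 lists, the one nearest to each of the 10 was taken by the Euclidean distance in the covered percentages of the 2 marks over the window. Trp63 was nearest to Dsp, the desmoplakin gene, at 0.529 percentage points, and Dsp was also nearest to Grhl2, at 5.42 points. Grhl1 was nearest to Rab25 (2.14 points). Grhl3, at full H2AK119ub cover and 0% H3K27me3, was at distance 0 from 2 genes, Krt5 and Nectin1. Ovol1 was nearest to Bcl11b (5.26 points), Ovol2 to Tgm1 (6.11), Tfap2a to Runx1 (8.99), Tfap2c to Cldn4 (3.42), and Tfap2b and Tfap2e to Epcam (0.677 and 0.515). The distance rests on 2 values per gene and ignores where in the window the regions lie. It can also pair genes that differ in their marks, since Tgm1 had 0% of its window under H3K27me3 and Ovol2 6.02%.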

How the data were processed

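Chromatin immunoprecipitation was followed by sequencing of single reads of 75 nt from libraries made with 5 ng of DNA, per the labels' protocols. Per the submitters' processing notes, Bowtie2 2.3.3.1, SAMtools 1.9 and mm10 were used, in roles those notes do not give. For each mark the authors deposited a list of called regions whose columns, per the file headers, are chromosome, start and end. How regions were called, at which threshold, with what use of the input and on which pool of libraries is not stated in the labels or headers. These steps decide how many regions exist and how wide they are. A gene without a region may carry the mark below an unknown threshold, and covered lengths do not compare amounts of the marks. Starts were read as counted from 0 and written as counted from 1.

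Genes were matched by symbol to a RefSeq table of GRCm38.p6 (mm10), 10 of 10, and a region counted from an overlap of 1 bp. The table gives no strand, so strand and starts come from a RefSeq promoter table, in which 6 of the 10 were matched. Trp63, Grhl2, Ovol1 and Tfap2c are described by lower and higher coordinates. Covered bases were tested on simulated data in 20 rounds and differed from a direct recount by 0. Python 3.11.15, numpy 2.4.6 and pandas 2.3.3 were used. The genes and lists were chosen with earlier results of these data known, so no set test was made. All 10 genes and every region in their windows are named. In each list the genes named are those whose region is widest, at most 4 for each combination of marks, with all that had neither, and any other was chosen after its values were seen. One gene that this rule would name is not reported here.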

Additional observations from a re-analysis of the deposited data

How the results depend on the processing

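No paired analysis was possible because each mark has 1 list of regions with no replicate column, and for the same reason no library could be left out. All 10 genes kept an H2AK119ub region with flanks of 0, 5, 10 or 50 kb, and 9 did when most of a region had to lie inside the window or only wide regions were used. With only regions of at least median width, 2 genes had H3K27me3 and 2 had both marks, with 19 H2AK119ub regions (370.3 kb covered) and 3 H3K27me3 regions. The same list left 2 genes with H3K27me3 within 1 kb of an end. That count was 1 when both ends were required. It was 2 when only listed 5′ starts were used, which the promoter set used here gives for 6 genes. A flank of 50 kb gave 46 H2AK119ub regions. The share of all genes with H2AK119ub was 57.2%, 64.9% and 77.4% with flanks of 0, 5 and 50 kb. That with H3K27me3 was 25.7%, 32.6% and 57.2% with the same flanks, and 42.5% on the autosomes with the main flank of 20 kb. Of the 10 genes, 4, 4 and 5 had H3K27me3 at flanks of 0, 5 and 50 kb, so this comparison changed with the flank. Of 74 alternative values, 56 stayed within the limits set (counts within 1.5 times, shares and covered lengths within a 95% binomial interval). Among them were those for joining regions less than 3 kb apart, dropping regions under 2 kb and counting starts from 1. The interval took each gene, or each kb of the windows, as a separate draw. Neighbouring kb share regions, so it is a fixed limit and measures no spread in the data. Read depth is unknown, so what a deeper library would have called was not analysed here.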
